A study of Mus musculus with 12 samples.

Results

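The 9 genes described here encode 3 Janus kinases (Jak1, Jak2 and Jak3) and 6 signal transducers and activators of transcription (Stat2, Stat3, Stat4, Stat5a, Stat5b and Stat6). They were chosen by gene symbol and are 9 of the 41128 genes in the expression table, of which 12520 passed the filter on low values and were tested. All 9 members passed that filter. The set does not hold every member of either family, and the remaining ones are not analysed here. RNA was sequenced from spleen cells of C57BL/6J mice aged 6 to 8 weeks, in 12 libraries of 4 groups of 3. The groups were resting CD43- B cells of females (1 to 3), the same cells of males (1 to 3), CD4+CD62L+ T cells of females (4 to 6) and the same cells of males (4 to 6). All mice were of this inbred strain with no treatment named in the labels, and the sort of the naive T cells kept CD62L-high, CD44-low cells without CD25. Cells of several mice were pooled for each library, and replicate error is therefore that between pools rather than single animals.

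Cytokine receptors of this class have no enzyme activity of their own. Binding of a cytokine brings together receptor chains with their attached JAKs, which phosphorylate each other and the receptor tails. STAT proteins dock on these tails, are phosphorylated, pair and enter the nucleus, where they bind DNA and change transcription. In lymphocytes the pathway carries the signals of interferons and of many interleukins, among them those that keep naive T cells alive and those that steer helper T cell and B cell responses. SOCS proteins, PIAS proteins and phosphatases hold it in check.

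Levels are given as adjusted TPM, a transcript abundance corrected for transcript length to which the authors applied an adjustment of their own. Levels of different genes are set side by side below as deposited, and whether the adjustment treats all genes alike was not tested. The depth behind these values is unknown. The files give a lower and an upper bound for each value, and for the members the upper bound was in the median 1.05 to 1.11 times the lower one. Changes are log2 differences of adjusted TPM + 1, B minus T cells, from limma with the Benjamini-Hochberg method over 12520 genes, and a gene with an adjusted p under 0.05 is called. The libraries summed to between 561020 and 1453940, and a single transcript, Yam1, made up 32.2% of the sum in female B cell 1 and 37.4% in male T cell 6. Member values were therefore also compared after 3 rescalings of the libraries, and ratios between members of the same library, which no rescaling of whole libraries can move, are given beside them. The purity of the cell types was looked at first. Among B cell markers, Cd79a was at 489 ± 55.7 in B cells and 0.923 ± 0.356 in T cells, Cd79b at 973 ± 88.7 and 0.837 ± 0.627, and Ms4a1 at 771 ± 46.8 and 0.518 ± 0.436 (SD, n = 6 each). Pax5 was at 148 ± 13.6 in B cells and 0.000807 ± 0.00072 in T cells. The summed level of 5 T cell markers (Cd3d, Cd3e, Cd4, Lck and Tcf7) was 1017 to 1194 in T cell libraries and 9.76 to 14.1 in B cell libraries. Most of the B cell sum was Lck, with a mean of 10.4, beside 0.220 for Cd3d, 0.0454 for Cd3e, 0.00361 for Cd4 and 0.534 for Tcf7. Spn, which encodes CD43, was at 6.99 ± 0.889 in B cells and 184 ± 14.6 in T cells (SD, n = 6 each).

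The members lie on 6 chromosomes (GRCm38, GENCODE M21). Jak1 (ENSMUSG00000028530) lies at chr4:101152367-101265282 on the minus strand, Jak2 (ENSMUSG00000024789) at chr19:29251828-29313080 on the plus strand and Jak3 (ENSMUSG00000031805) at chr8:71676296-71690575 on the plus strand. Stat4 (ENSMUSG00000062939) lies at chr1:51987148-52107189, Stat6 (ENSMUSG00000002147) at chr10:127642986-127660957 and Stat2 (ENSMUSG00000040033) at chr10:128270559-128292849, all on the plus strand. Stat5b (ENSMUSG00000020919, chr11:100780731-100850724, minus strand), Stat5a (ENSMUSG00000004043, chr11:100859351-100885169, plus strand) and Stat3 (ENSMUSG00000004040, chr11:100885098-100939540, minus strand) are direct neighbours. Stat5b and Stat5a point away from each other with 8626 bases between them, and the ends of Stat5a and Stat3 overlap by 72 bases on opposite strands. The libraries were made with a strand-specific kit, but whether counting used strand is not given in the sources used here.

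Stat5a and Stat5b are the closest pair, and their coding sequences are shown because reads from identical stretches cannot be given to 1 of them by sequence. The longest coding sequences in GENCODE M21 hold 2391 bases for Stat5a and 2358 for Stat5b, stop codon left out. Over 2291 aligned bases, 2080 were identical (90.8%), and the longest identical run was 324 bases. Bases 45 to 164 of both coding sequences hold the stretch of 120 aligned bases with the most differences, 33, which are in capitals.
Stat5a: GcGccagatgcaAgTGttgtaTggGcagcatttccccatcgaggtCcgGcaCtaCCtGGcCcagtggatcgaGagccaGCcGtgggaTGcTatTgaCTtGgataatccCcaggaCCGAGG
Stat5b: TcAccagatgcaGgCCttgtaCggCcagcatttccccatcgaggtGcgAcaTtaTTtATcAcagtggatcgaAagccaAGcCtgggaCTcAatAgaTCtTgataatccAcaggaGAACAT
The first 120 bases of the longest identical run, bases 571 to 690 of both, are the same letters in either gene.
Stat5a and Stat5b: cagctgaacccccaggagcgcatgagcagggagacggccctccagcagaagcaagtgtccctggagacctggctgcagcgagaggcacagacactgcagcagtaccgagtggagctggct
Of all 50-base windows of their transcripts, 608 were shared between the genes, which is 8.21% of the Stat5a windows and 11% of the Stat5b windows. Their levels are therefore uncertain to the extent that shared reads were divided between them. Stat4 shared 21.7% of its windows with Gm28177, a transcript on the same strand that reached at most 0.753 adjusted TPM, and Jak3 shared 6.93%, mostly with Insl3, which reached at most 0.762. The other 5 members shared at most 0.690% of their windows with another gene.

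The first comparison asks how resting B cells and naive T cells differ in the RNA of these kinases and factors. Of the 9 members, 7 were called higher in T cells, 1 was called higher in B cells and 1 was not called. Of all tested genes 73.0% were called, 31.4% as higher in B cells and 41.6% as higher in T cells. The median log2 difference of the members was -0.31, beside -0.088 over all genes tested. Stat5b had the largest difference of the 9 and Stat6 the smallest. The B and T cell libraries did not overlap for 7 members, Stat2 with B cells higher and 6 with T cells higher, beside 53.9% of all tested genes, 24.2% with B cells higher and 29.7% with T cells higher. In bulk samples, fewer cells that express a gene and less RNA per cell cannot be told apart. The calls depended on the scaling between libraries: with each library scaled to a sum of 1000000, 1 member was called higher in B cells against 2 in T cells, with equal protein-coding sums 2 and 4, and with median-ratio scaling 1 and 6. In that order, all genes called were 5087 and 2021 of 13016 tested, 5773 and 2922 of 12583, and 4757 and 4295 of 12532. With the same-numbered T cell libraries as a block the member counts were 1 and 6, Stat3 being the call lost. Stat2, Stat4 and Stat5b were called in the same direction under the deposited and all 3 other scalings.

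**Figure D1:**
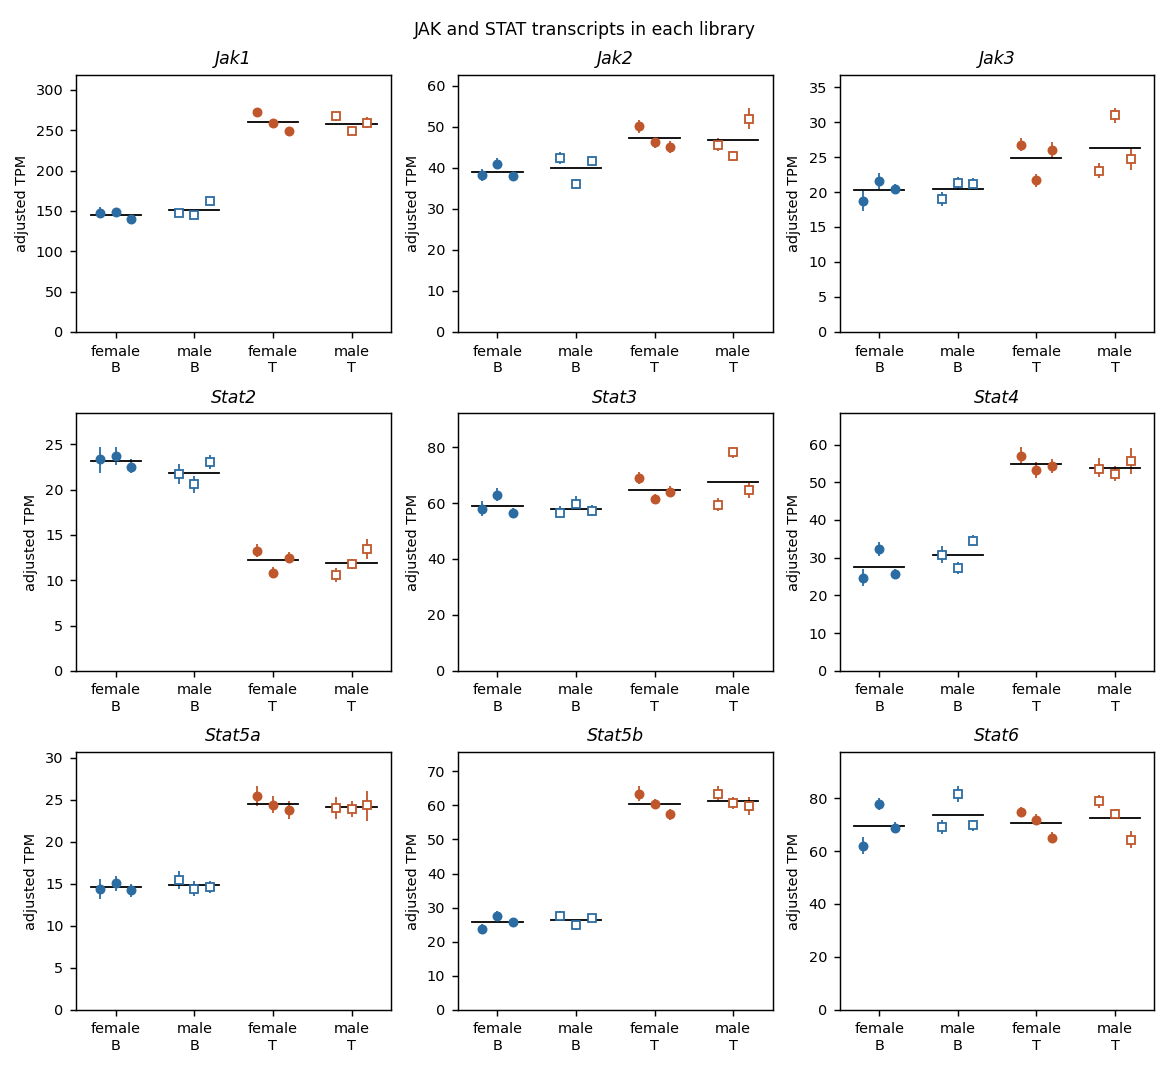
Adjusted TPM of each of the 9 members in each of the 12 libraries, with 1 panel per gene, axes starting at 0, filled circles for females and open squares for males. Bars on points are the deposited lower and upper bounds, and black lines are means of 3 libraries. Jak1, Stat4, Stat5a and Stat5b libraries of T cells all sit above those of B cells, Stat2 shows the opposite order, and Stat6 libraries of both cell types overlap.

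Among the kinases, Jak1 was the most abundant member in both cell types. JAK1 pairs with the receptors of interferons, of the IL-6 family and of interleukins that use the common gamma chain. Its level was 148, 148 and 139.5 in female B cells 1, 2 and 3 and 148, 145 and 162 in male B cells 1, 2 and 3. It was 272, 259 and 249.5 in female T cells 4, 5 and 6 and 267, 249 and 259 in male T cells 4, 5 and 6. The highest B cell library, male 3, lay well below the lowest T cell library, male 5, and the groups did not overlap. The mean was 148.5 ± 7.55 in B cells and 259 ± 9.30 in T cells (SD, n = 6 each), a T to B ratio of 1.75. The log2 difference was -0.80 ± 0.055 (SE) with a limma adjusted p of 2.6e-08. With each library scaled to a sum of 1000000 it was -0.42 and no longer called (adjusted p = 0.0837), while equal protein-coding sums gave -0.52 and median-ratio scaling -0.69, both called.

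Jak2, the kinase of interferon-gamma and IL-12 receptors and of hormone-like cytokine receptors, differed less. Female B cells 1, 2 and 3 held 38.3, 40.9 and 38.1 and male B cells 42.3, 36.05 and 41.7. Female T cells 4, 5 and 6 held 50.1, 46.4 and 45.2 and male T cells 45.7, 42.9 and 52.0. The groups did not overlap, but male B cell 1 came within 1 unit of male T cell 5. Its log2 difference was -0.24 ± 0.062 (limma adjusted p = 0.0035), and it turned to 0.13 with sums of 1000000 and to 0.035 with equal protein-coding sums (adjusted p = 0.587 and 0.647). Jak3 works with the common gamma chain (Il2rg) alone and is largely a kinase of blood cells. Its level was 18.75, 21.6 and 20.4 in female B cells and 18.9, 21.3 and 21.1 in male B cells, against 26.8, 21.7 and 26.1 in female T cells and 23.0, 31.0 and 24.7 in male T cells. The lowest T cell library, female 5, lay just above the highest B cell library, female 2. The log2 difference of -0.31 ± 0.080 (limma adjusted p = 0.0038) turned to 0.059 with sums of 1000000 and shrank to -0.035 with equal protein-coding sums (adjusted p = 0.811 and 0.805). Both genes therefore have a direction that depends on the scaling.

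Ratios between kinases of the same library are free of this choice. The sum of the 3 kinases was 208.4 ± 9.41 in B cells and 332 ± 10.6 in T cells. Jak1 made up 71.3% ± 0.848 of that sum in B cells against 78.1% ± 1.01 in T cells, with no overlap. Jak2 made up 19.0% ± 0.826 and 14.2% ± 0.763, and Jak3 9.78% ± 0.651 and 7.71% ± 1.07. The ratio of Jak1 to Jak2 was 3.76 ± 0.198 in B cells and 5.53 ± 0.312 in T cells without overlap, while that of Jak2 to Jak3 was 1.95 ± 0.181 and 1.87 ± 0.279 with overlap. The summed RNA level of these 3 kinases was thus weighted more to Jak1 in T cells, and the ratio of Jak2 to Jak3 differed by less than its spread. Protein was not measured.

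Among the factors, Stat2 was the only member called higher in B cells. STAT2 is the partner that joins IRF9 in the interferon-stimulated complex ISGF3. Its level was 23.4, 23.7 and 22.5 in female B cells 1, 2 and 3 and 21.8, 20.6 and 23.1 in male B cells 1, 2 and 3. It was 13.3, 10.8 and 12.5 in female T cells 4, 5 and 6 and 10.6, 11.8 and 13.5 in male T cells 4, 5 and 6. The groups were far apart, and the B to T ratio of the means was 1.86. Its log2 difference was 0.85 ± 0.067 (limma adjusted p = 1.1e-07), and it was 0.96 to 1.22 under the 3 other scalings.

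The Stat2 promoter is shown because it alone among the 9 members held a match to a spaced STAT motif and an interferon-type motif close together. The 250 bases before each RefSeq start site (GRCm38.p6) were searched for TTCNNNGAA, TTCNNNNGAA and TTTCNNTTTC, the last in both orientations; the first and second read the same on either strand. Of 27025 genes with a promoter in the table, 8.13%, 6.76% and 3.46% held these letters. All 9 members had a promoter there. None held TTCNNNGAA, Stat2 held TTCNNNNGAA, and Stat2 and 1 of the promoters of Stat4 held TTTCNNTTTC, a pattern that was added after the Stat2 sequence had been read. In the Stat2 promoter (chr10:128270248-128270497, plus strand) the matches, in capitals, began 222 and 210 bases before the start and did not overlap.
Stat2: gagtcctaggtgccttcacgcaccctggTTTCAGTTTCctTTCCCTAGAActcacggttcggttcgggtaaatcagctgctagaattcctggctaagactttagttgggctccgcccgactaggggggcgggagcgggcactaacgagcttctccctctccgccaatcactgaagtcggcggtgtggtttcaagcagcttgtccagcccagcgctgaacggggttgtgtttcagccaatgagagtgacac
A match is a description of letters and not evidence of a bound site.

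Stat3, the factor of IL-6 and IL-10 type signals, differed little between the cell types. It was at 57.8, 63.0 and 56.3 in female B cells and 56.4, 59.8 and 57.3 in male B cells. In female T cells it was at 68.9, 61.5 and 64.0 and in male T cells at 59.4, 78.1 and 64.6. The groups overlapped, with male T cell 4 and female T cell 5 inside the B cell range and male T cell 5 far above all others. The log2 difference was -0.17 ± 0.067 (limma adjusted p = 0.037), and its direction turned to 0.21 with sums of 1000000 and 0.11 with equal protein-coding sums. The call did not survive leaving out single libraries: the limma adjusted p was 0.0680 without female B cell 1, 0.0824 without female B cell 3, 0.0689 without male B cell 1 and 0.0644 without male B cell 3. It was 0.0843 without female T cell 4 and 0.0855 without male T cell 5. With the same-numbered T cell libraries as a block, fitted as a random effect, the limma adjusted p was 0.102, and with those libraries averaged it was 0.0278.

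Stat4 serves IL-12 signals and the making of TH1 cells. Female B cells 1, 2 and 3 held 24.7, 32.4 and 25.7 and male B cells 30.8, 27.3 and 34.4. Female T cells 4, 5 and 6 held 57.02, 53.3 and 54.3 and male T cells 53.5, 52.2 and 55.7. The highest B cell library, male 3, was far below the lowest T cell library, and the groups did not overlap. The spread was wider in B cells, with a coefficient of variation of 13.4%, than in T cells, with 3.22%. The mean was 29.2 ± 3.91 in B cells and 54.3 ± 1.75 in T cells, a T to B ratio of 1.86. The log2 difference was -0.88 ± 0.074 (limma adjusted p = 2.05e-07), and it was -0.77 to -0.51 under the 3 other scalings.

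Stat5a and Stat5b act downstream of IL-2, IL-7 and other cytokines that keep T cells alive. Stat5a was at 14.4, 15.1 and 14.2 in female B cells and 15.5, 14.4 and 14.6 in male B cells. It was at 25.4, 24.4 and 23.7 in female T cells and 23.98, 23.9 and 24.4 in male T cells. It had the tightest replicates of all 9 members in T cells, with a coefficient of variation of 2.52%, and none of its 12 pairs of replicate libraries had deposited bounds that lay apart. The log2 difference was -0.69 ± 0.044 (limma adjusted p = 1.3e-08), and with sums of 1000000 it was -0.33 and not called (adjusted p = 0.139). Stat5b was at 23.8, 27.5 and 25.7 in female B cells and 27.5, 24.7 and 26.9 in male B cells. It was at 63.5, 60.4 and 57.4 in female T cells and 63.4, 60.6 and 59.8 in male T cells. Every T cell library held more than any B cell library, and the T to B ratio of the means, 2.34, was the highest of the 9 members. Its log2 difference was -1.20 ± 0.052 (limma adjusted p = 2.5e-10), larger in size than that of 82.5% of all genes tested, and it was -1.09 to -0.83 under the 3 other scalings.

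The balance of the STAT5 pair moved with the cell type. The ratio of Stat5a to Stat5b was 0.566 ± 0.0238 in B cells, between 0.542 and 0.605, and 0.400 ± 0.0123 in T cells, between 0.378 and 0.414. The groups did not overlap, and Stat5b was the more abundant in all 12 libraries. The bounds of the deposited values, for B against T cell libraries, lay apart in 36 of 36 pairs for both genes.

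Stat6, the factor of IL-4 and IL-13 signals, was the 1 member not called between the cell types. Its level was 62.05, 77.6 and 68.8 in female B cells and 69.0, 81.7 and 69.7 in male B cells, against 74.8, 71.9 and 65.0 in female T cells and 78.8, 74.1 and 64.0 in male T cells. The T cell values lay inside the range of the B cell values. The mean was 71.5 ± 7.03 in B cells against 71.4 ± 5.80 in T cells, and the log2 difference was -0.00076 (limma adjusted p = 0.99) with a 95% interval from -0.17 to 0.16. Only 0.120% of tested genes had a smaller difference in the deposited scale. With equal protein-coding sums the difference was 0.28 with B cells higher and called (adjusted p = 0.0263), and it was 0.38 with sums of 1000000 and 0.11 with median-ratio scaling, neither called.

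**Figure D2:**
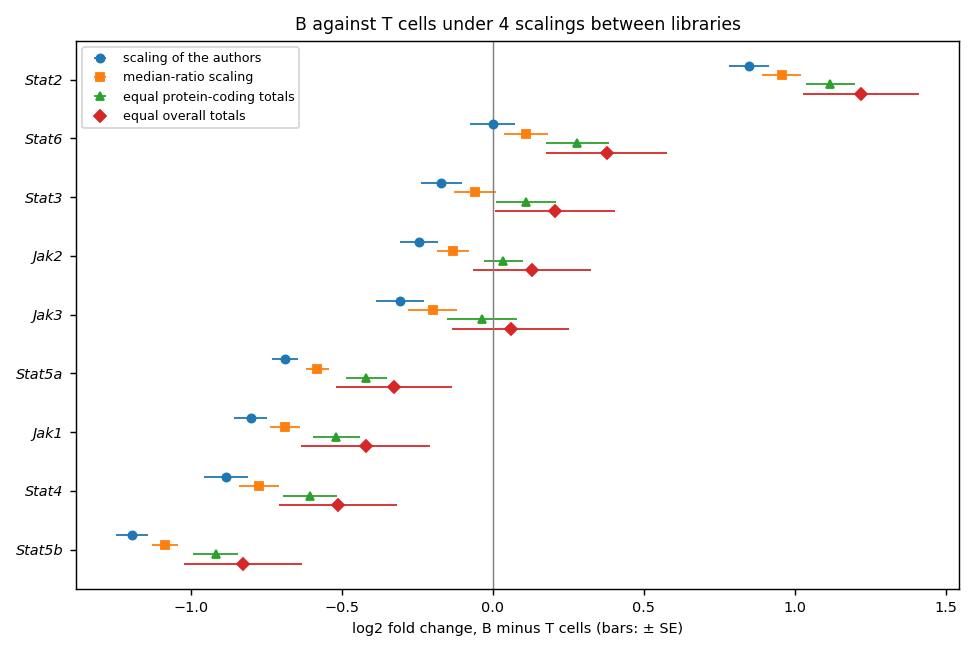
Log2 difference of B minus T cells for each of the 9 members (horizontal axis, bars ± SE) as deposited and under 3 other scalings between libraries. Stat2 lies right of 0 and Jak1, Stat4, Stat5a and Stat5b lie left of 0 under all 4, whereas Jak2, Jak3, Stat3 and Stat6 have signs that depend on the scaling.

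The order of levels within a cell type is that of the deposited adjusted TPM. In B cells it ran from Jak1 (148.5) through Stat6 (71.5), Stat3 (58.4), Jak2 (39.6), Stat4 (29.2), Stat5b (26.0), Stat2 (22.5) and Jak3 (20.4) down to Stat5a (14.7). The ranges of 3 pairs of neighbours overlapped: Stat6 with Stat3, Stat4 with Stat5b, and Stat2 with Jak3. In T cells it ran from Jak1 (259) through Stat6 (71.4), Stat3 (66.1), Stat5b (60.8), Stat4 (54.3), Jak2 (47.0), Jak3 (25.6) and Stat5a (24.3) down to Stat2 (12.1). There 3 pairs of neighbours overlapped: Stat6 with Stat3, Stat3 with Stat5b, and Jak3 with Stat5a. Stat2 was thus above Stat5a in B cells and the lowest of all in T cells, and Stat5b moved from below Jak2 to above it. Jak1 was above 96.9% of tested genes in B cells against 98.0% in T cells, and Stat2 above 71.2% and 52.8%.

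The sum of the 6 factors was 222 ± 11.7 in B cells and 289 ± 10.7 in T cells. Within this sum the share of Stat2 was 10.2% ± 0.767 in B cells and 4.18% ± 0.440 in T cells. The share of Stat5b was 11.7% ± 0.562 and 21.1% ± 0.585, and that of Stat4 was 13.1% ± 1.35 and 18.8% ± 0.838. None of these 3 overlapped between the cell types. Stat6 was the largest share in the B cell libraries, with 32.1% ± 1.97 against 24.7% ± 1.57 in T cells, again without overlap. Stat3 was at 26.3% ± 0.990 and 22.8% ± 1.82, and here the ranges of 25.3% to 28.1% and 20.5% to 26.0% overlapped. Stat5a was at 6.62% ± 0.317 and 8.41% ± 0.268. The ratio of Stat2 to Stat5b was 0.867 ± 0.0633 in B cells and 0.199 ± 0.0226 in T cells, the widest parting among the pairs of factors. In contrast the ratio of Jak1 to Stat5a was 10.1 ± 0.554 and 10.7 ± 0.250, and that of Jak3 to Stat3 0.348 ± 0.0169 and 0.386 ± 0.0180, with overlap in both cases.

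**Figure D3:**
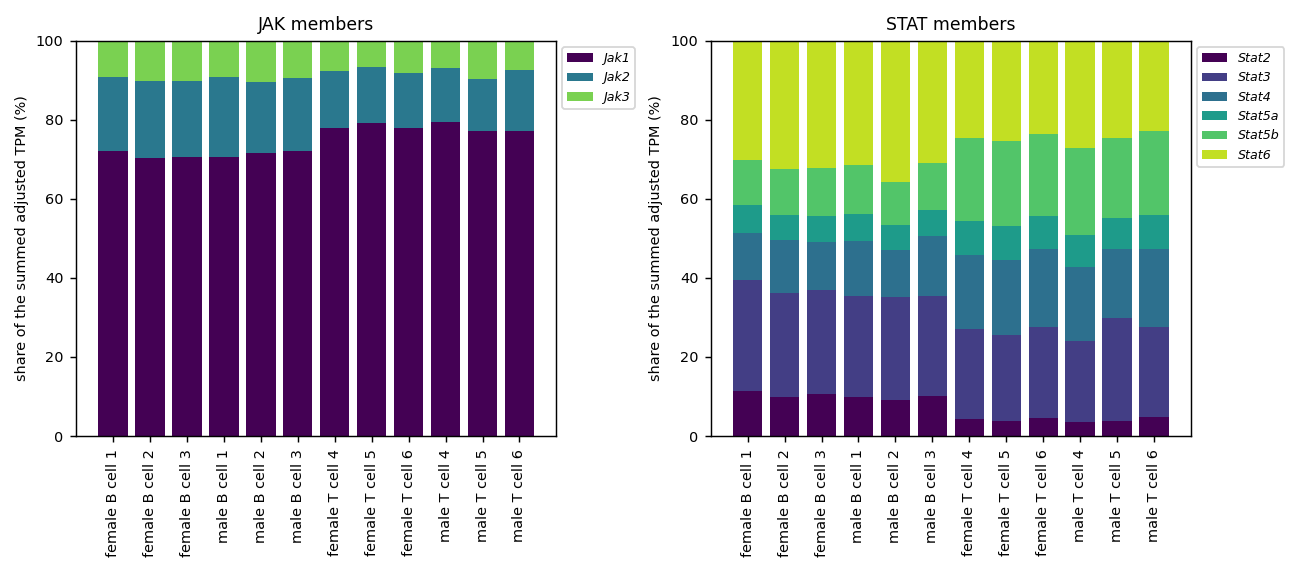
Share of each member (percent, vertical axis starting at 0) in the summed adjusted TPM of the 3 kinases and of the 6 factors, with 1 stacked bar for each of the 12 libraries. In T cell libraries Jak1 takes 77.1% to 79.5% of the kinase sum, above its 70.3% to 72.2% in B cell libraries, and Stat5b takes 20.2% to 21.9% of the factor sum, above 10.8% to 12.4%.

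The second comparison asks whether females and males differ. No member was called by limma between the sexes in B cells, in T cells or in the difference between the sex effects, and 0 of 9 had an unadjusted p under 0.05 in any of the 3. Among all 12520 genes tested, few had such an unadjusted limma p: 373, 319 and 295 in that order. Of all tested genes 0.144% were called in B cells, 0.0559% with females and 0.0879% with males higher. In T cells 0.104% were called, 0.0479% with females and 0.0559% with males higher, and 0.0% were called for the difference of the sex effects. Female and male libraries of the same cell type overlapped for all 9 members in both cell types, where 7.2% of tested genes in B cells and 8.49% in T cells did not overlap. The largest sex difference was that of Stat4 in B cells, at 27.6 ± 4.19 in females and 30.8 ± 3.57 in males (SD, n = 3 each). Its log2 difference was -0.16, female minus male, with a 95% interval from -0.39 to 0.068. For Stat5a the intervals were -0.16 to 0.11 in B cells and -0.11 to 0.16 in T cells, and for Jak3 they were -0.26 to 0.23 and -0.32 to 0.17. Differences inside these intervals remain possible, and the smallest difference that 3 pools a sex could detect was not worked out.

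The other genes of the pathway were taken as 7 lists with 72 genes, of which 70 were tested. Of these, 22 were called higher in B cells, 34 in T cells and 14 in neither, against the background of 31.4% and 41.6% above. With sums of 1000000 the counts were 28 and 19, beside 5087 and 2021 of all 13016 genes tested there. With equal protein-coding sums they were 32 and 22, beside 5773 and 2922 of 12583. Median-ratio scaling gave 28 and 27, beside 4757 and 4295 of 12532. The median log2 difference of the 70 was -0.16. Unless a sentence says otherwise, the pathway genes named below kept their direction and their call under every scaling tried. Several that were higher in B cells moved by more than 1.5 times with sums of 1000000, to log2 differences of 0.96 for Ifngr2, 0.76 for Socs4, 0.72 for Socs7, 0.97 for Pias4, 0.66 for Sh2b1, 1.04 for Ncoa1, 1.06 for Kpna2 and 1.14 for Mcl1.

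Of the 18 receptor chains that dock JAKs, 17 were tested, with 3 called higher in B cells, 10 in T cells and 4 in neither. Il7r, the chain that binds IL-7, was at 0.419 ± 0.220 in B cells and 218 ± 7.28 in T cells, a log2 difference of -7.28 (SD, n = 6 each, limma adjusted p = 7.3e-16). Il6st, which encodes the shared signalling chain gp130, was at 5.43 ± 0.494 and 87.6 ± 12.1, and Il6ra, its IL-6 binding partner, at 5.33 ± 0.642 and 62.0 ± 2.62. These 3 chains were thus at low levels in B cells and abundant in T cells, whereas Il2rg, the common gamma chain that IL-7 receptors also use, was at 135 ± 11.8 and 181 ± 9.37. Il2rg was named after its values were seen, and its log2 difference of -0.42 was not called with sums of 1000000 (-0.043) or equal protein-coding sums (-0.14). In the other direction Il10ra was at 95.1 ± 19.2 in B cells against 9.03 ± 1.69 in T cells, with a log2 difference of 3.25 (limma adjusted p = 2.07e-10). Il10rb was at 52.1 ± 3.98 and 23.7 ± 2.03, and Ifngr2, a chain of the interferon-gamma receptor, at 28.4 ± 2.63 and 18.6 ± 1.21. Il13ra1 did not pass the filter on low values.

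Of the 8 SOCS family inhibitors, 7 were tested, with 3 called higher in B cells and 4 in T cells. Socs3, the inhibitor of gp130 signals, was at 6.19, 4.39 and 5.05 in female B cells and 8.02, 6.64 and 3.57 in male B cells. It was at 39.3, 35.9 and 39.7 in female T cells and 37.4, 79.1 and 49.0 in male T cells. The groups did not overlap, and the log2 difference was -2.82 ± 0.19 (limma adjusted p = 1.8e-08). Socs1 was at 3.08 ± 0.487 in B cells against 12.4 ± 2.12 in T cells, and Cish, which answers to STAT5, at 0.148 ± 0.106 and 2.14 ± 0.910. Socs5, Socs4 and Socs7 had log2 differences of 1.26, 0.39 and 0.37, with B cells higher. Socs2 did not pass the filter. Male T cell 5 held the highest level of Socs3, of Stat3 and of Jak3, and without that library the members called higher in T cells were 6 and the log2 difference of Stat3 was -0.12.

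Among the 4 PIAS genes, whose products restrain STATs in the nucleus, 2 were called higher in B cells and 1 in T cells. Pias3, named for its action on STAT3, was at 9.98 ± 1.11 in B cells against 3.36 ± 0.284 in T cells, and Pias4 at 17.8 ± 0.925 and 11.3 ± 0.645. Pias2 had a log2 difference of -0.24, and its direction turned with sums of 1000000 and with equal protein-coding sums. With median-ratio scaling it was -0.14 and not called (limma adjusted p = 0.0611). Of 11 phosphatases and adaptors, 4 were called higher in B cells, 3 in T cells and 4 in neither. Sh2b3, an adaptor that restrains JAK2 and is also called LNK, was at 58.6 ± 2.76 in B cells and 10.9 ± 0.464 in T cells, a log2 difference of 2.33 (limma adjusted p = 1.42e-13). Ptpn6, which encodes the phosphatase SHP-1, was at 352 ± 20.4 and 97.3 ± 14.4, and Sh2b1 had a log2 difference of 0.30. Higher in T cells were Ptpn2, the nuclear phosphatase TC-PTP, with -0.66, Stam with -0.48 and Ptprc, which encodes CD45, with -0.41. With sums of 1000000 they were at -0.29, -0.12 and -0.031 and none was called (limma adjusted p = 0.197, 0.602 and 0.924), and Ptprc was also not called with equal protein-coding sums (-0.13, adjusted p = 0.303).

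Of the 9 nuclear partners and cofactors, 6 were called higher in B cells and 3 in T cells. Ep300, an acetyltransferase that STATs recruit, was at 58.7 ± 3.73 in B cells and 30.0 ± 3.90 in T cells. Kpna2, an importin, and Ncoa1, a coactivator, had log2 differences of 0.69 and 0.67. Nmi, which binds STATs, was at 28.7 ± 3.38 and 49.5 ± 5.36, and its log2 difference of -0.77 was -0.40 and not called with sums of 1000000 (limma adjusted p = 0.0718). Irf9, the DNA-binding partner of STAT2, was at 56.6 ± 7.43 in B cells and 70.6 ± 5.56 in T cells, a log2 difference of -0.32 (limma adjusted p = 0.0067) whose direction turned to 0.057 with sums of 1000000. With equal protein-coding sums it was -0.039 and not called (limma adjusted p = 0.731). Kpna4 likewise went from -0.31 to 0.063 with sums of 1000000, and to -0.033 and not called with equal protein-coding sums (limma adjusted p = 0.723). Stat2 was called higher in B cells under every scaling, and for its partner Irf9 no scaling gave that call.

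Of the 10 interferon-induced genes downstream of STAT2, 1 was called higher in B cells, 6 in T cells and 3 in neither. Ifit1 was at 2.38 ± 0.876 in B cells and 19.8 ± 4.78 in T cells, a log2 difference of -2.63 (limma adjusted p = 2.99e-08). Usp18, which restrains interferon receptor signals, was at 6.34 ± 1.80 and 17.7 ± 5.31, and Irf7 at 19.3 ± 5.02 and 45.6 ± 10.5. Mx1, which encodes an antiviral GTPase, had the opposite order, with 8.40 ± 2.76 in B cells and 1.93 ± 0.973 in T cells. Of the 7 called genes of this list, 6 thus had the reverse direction to Stat2 itself.

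Of the 12 genes induced through STAT3, STAT5 or STAT6, 3 were called higher in B cells, 7 in T cells and 2 in neither. Fcer2a, the low-affinity IgE receptor CD23 of B cells and a target of STAT6, was at 174 ± 23.7 in B cells and 0.232 ± 0.155 in T cells. Bcl6, which encodes a transcriptional repressor that acts in germinal centre cells, was at 28.5 ± 5.39 and 6.46 ± 0.489. Mcl1, a survival factor, was at 314 ± 17.3 and 186 ± 26.6. In the other direction Ccnd2, a cyclin of the G1 phase, was at 22.3 ± 2.81 in B cells and 71.3 ± 7.03 in T cells. Osm, a cytokine of the IL-6 family, was at 3.15 ± 0.221 and 10.1 ± 1.03, and Bcl2l1, which encodes BCL-XL, at 1.90 ± 0.350 and 4.86 ± 0.406.

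**Figure D4:**
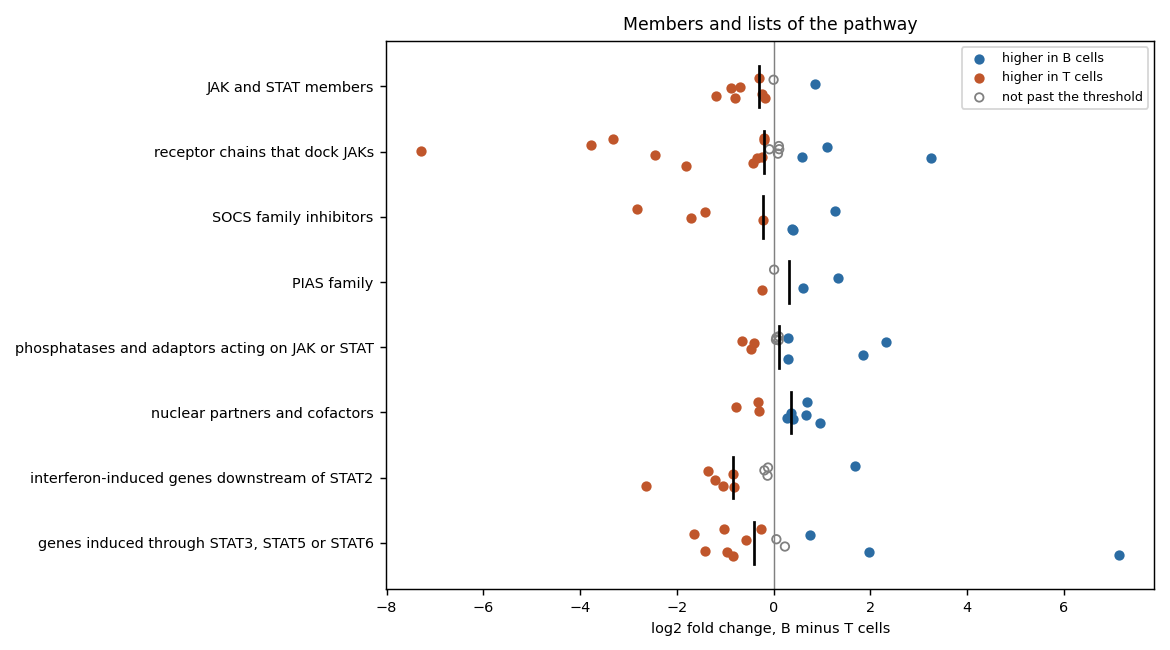
Log2 difference of B minus T cells (horizontal axis) for each tested gene of the member set and of 7 pathway lists, 1 line per list, as deposited. Points right of 0 are higher in B cells. The receptor chains span from -7.28 for Il7r to 3.25 for Il10ra, a wider range than that of the members, -1.20 to 0.85; the signs of Jak2, Jak3, Stat3, Stat6, Pias2, Irf9, Kpna4 and 9 other list genes turned under some scaling.

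Promoters of 3 genes of these lists are shown as examples, as each held 1 of the searched patterns and was among the genes with the largest differences of its list. Il7r, Ifngr2, Socs1 and Bcl6 also met both conditions and are not shown. Ifit1 held TTTCNNTTTC beginning 104 and 85 bases before its start (chr19:34640744-34640870, plus strand, RefSeq GRCm38.p6), as did 62.5% of the 8 interferon-induced genes with a promoter in the table, beside 3.46% of all genes. Socs3 held TTCNNNGAA beginning 154 bases before its start (chr11:117969467-117969616, minus strand). It was 1 of 4 SOCS family genes with a promoter in the table, and 8.13% of all genes held that pattern. Fcer2a held TTCNNNNGAA in 1 of its 3 promoters, beginning 168 bases before that start (chr8:3690862-3691111, minus strand). In its list 11.1% of the 9 genes with a promoter held that pattern, near the 6.76% of all genes. Matches are in capitals.
Ifit1: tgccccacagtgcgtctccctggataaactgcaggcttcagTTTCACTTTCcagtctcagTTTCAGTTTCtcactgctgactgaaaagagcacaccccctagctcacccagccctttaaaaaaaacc
Socs3: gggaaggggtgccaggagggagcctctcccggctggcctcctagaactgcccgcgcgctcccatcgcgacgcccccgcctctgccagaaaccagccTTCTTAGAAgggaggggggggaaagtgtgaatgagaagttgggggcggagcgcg
Fcer2a: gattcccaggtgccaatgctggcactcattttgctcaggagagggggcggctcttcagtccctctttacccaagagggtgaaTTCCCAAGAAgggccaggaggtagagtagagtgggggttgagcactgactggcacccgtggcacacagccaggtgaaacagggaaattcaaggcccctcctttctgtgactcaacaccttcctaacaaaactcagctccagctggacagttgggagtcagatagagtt
In T cells, where Ifit1 and Socs3 were higher, and in B cells, where Fcer2a was higher, the RNA levels are those given above, and binding was not measured.

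Markers of other cell types reached the level of members in some libraries. Hbb-bs, a haemoglobin gene of red cells, was at 0.210 to 154 in B cell libraries, highest in male B cell 1, and at 1.52 to 32.3 in T cell libraries. Of 3 natural killer cell markers only Klrd1 passed the filter, at 0.895 ± 0.485 in B cells and 20.2 ± 2.83 in T cells. Ncr1 and Klrb1c reached at most 0.0137 and 0.0415 in T cells. They had the opposite order to Klrd1, at low levels. Ncr1 averaged 0.204 (B) against 0.00742 (T), and Klrb1c 0.170 (B) against 0.0164 (T). Of 4 monocyte and macrophage markers 2 were called higher in B cells, with sums of 10.3 to 14.3 in B and 2.62 to 5.76 in T cell libraries. The CD8 T cell pair summed to 0.607 to 2.32 and 5.48 to 8.27, but its genes ran opposite ways. Cd8a averaged 1.36 (B) against 0.166 (T), and Cd8b1 0.0383 (B) against 7.06 (T). Neutrophil pair sums were 0.268 to 2.15 and 0.0461 to 2.56. Plasma cell genes summed to 6.03 to 7.67 and 1.32 to 1.96, again from opposite orders. Sdc1 averaged 6.15 (B) against 0.0037 (T), while Prdm1 averaged 0.676 (B) against 1.66 (T). Each of Cd8a, Cd8b1, Sdc1 and Prdm1 was called in the direction of its means. The regulatory T cell pair summed to 0.162 to 0.331 and 1.51 to 15.97, and the erythroid genes to 0.912 to 198 and 2.45 to 43.8. Early response genes of cell handling (Fos, Fosb, Jun, Junb and Egr1) summed to 122 to 478 in B and 195 to 672 in T cell libraries, with 1 of 5 called, as higher in T cells. The part of these in the member differences was not tested.

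By the root mean square difference of centred log2 profiles over all 12 libraries, among 10440 genes, the nearest profile to Jak1 was that of Sh3kbp1 (0.0542) and then Tmx4 (0.0577). The nearest to Jak2 were Xpo7 (0.0432) and Tm9sf3 (0.0492), and to Jak3 Itpr2 (0.0882) and Dync1h1 (0.0904). The profile of Stat2 lay at 0.0611 from that of Epb4.1l2. Stat3 was nearest to Tmem175 (0.0658) and Cant1 (0.0786), and Stat4 to Wapal (0.0763) and Mbnl1 (0.0845). The closest likeness of all was that of Stat5a to Vprbp (0.0304), followed by Zyg11b (0.0415). Stat5b was nearest to Cmas (0.0489) and Ptpn7 (0.0611), and Stat6 to Sympk (0.0407) and Lins (0.0561). The 12 libraries share 2 cell types, so these distances mostly rank genes by the same step between them.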

How the data were processed

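RNA was sequenced from sorted spleen B and T cells, 12 libraries in 4 groups taken from the labels, which also describe the material of some fields as genomic DNA. Per the labels, RNA was depleted of ribosomal RNA, spiked with ERCC transcripts and made into strand-specific libraries. Trim Galore, FastQC, STAR and mm10 are named in the submitters' processing notes. The authors deposited an adjusted TPM signal per gene with bounds, and how the adjustment was made is not given in the sources used here. Each value has a lower and an upper bound, whose level is not given either. The values are treated here as a signal because the columns do not share a sum. Female B cell 1 sums to 1000000, while the sums of the 12 libraries run from 561020 to 1453940. Why female B cell 1 has that round sum is not given. Depth is unknown, and no count, interval of counting or floor could be given.

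The members were matched by symbol. A gene entered the test when 3 or more libraries reached an adjusted TPM of 1, and values were taken as log2(adjusted TPM + 1) into limma 3.58.1 (trend, R 4.3.3), with 1 coefficient per cell type and sex and Benjamini-Hochberg adjustment over all 12520 genes. The members and lists were chosen with earlier results of these data known. In each pathway list, at most the 3 largest called differences in each direction were named, and for each member the 2 nearest profiles. A marker and a near profile that these rules took in are not reported here. Alternatives were a pseudocount of 0.1, no filter, no trend, 2 planned scalings, each library left out, and, chosen after seeing the data, equal protein-coding sums, leaving out both libraries dominated by Yam1, and same-numbered T cell libraries as a random effect or averaged. Same-numbered female and male T cell libraries deviated together from their group means over all tested genes (r = 0.721, 0.548 and 0.521). That these numbers pair the T cell libraries comes from the data, not the labels. The main fit holds no such block, and its SE, intervals and adjusted p values treat the T cell libraries as separate. The pairing entered only the block and averaged alternatives. The scripts were tested on simulated data. Gene positions came from GENCODE M21 and promoters from RefSeq, both GRCm38, the assembly also called mm10.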

Additional observations from a re-analysis of the deposited data

How the results depend on the processing

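Rescaling between libraries changed most. With each library scaled to a sum of 1000000, the members called higher in T cells were 2 and the pathway genes called higher in T cells 19; with equal protein-coding sums they were 4 and 22, and 2 members were called higher in B cells. The called log2 differences that changed sign were Jak2 (0.13 and 0.035 in that order of scalings) and Stat3 (0.21 and 0.11) under both, and Jak3 (0.059) with sums of 1000000. Those no longer called were Jak1 (-0.42) and Stat5a (-0.33) with sums of 1000000, Jak3 (-0.035) with equal protein-coding sums and Stat3 (-0.059) with median-ratio scaling. Stat6, at -0.00076 and not called as deposited, was positive under all 3 scalings and newly called with equal protein-coding sums (0.28). The median over all genes was -0.088 as deposited, 0.26 with sums of 1000000, 0.17 with equal protein-coding sums and 0.015 with median-ratio scaling. All genes called higher in B and in T cells numbered 3926 and 5208 of 12520 tested as deposited. Under these scalings they numbered 5087 and 2021 of 13016, 5773 and 2922 of 12583, and 4757 and 4295 of 12532. The cause was not tested. Without both libraries dominated by Yam1, Stat3 (-0.18) was not called (limma adjusted p = 0.0721).

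Leaving out single libraries in 12 fits, the log2 difference of Stat3 ran from -0.21 to -0.12 and its call was lost in 6 of them; the members called higher in T cells were 6 to 7. The other members kept their side of the threshold in these fits: Jak1 -0.83 to -0.78, Jak2 -0.27 to -0.21, Jak3 -0.35 to -0.25, Stat2 0.81 to 0.89, Stat4 -0.94 to -0.84, Stat5a -0.70 to -0.68, Stat5b -1.22 to -1.17 and Stat6 -0.043 to 0.038. A pseudocount of 0.1, no filter and no trend changed no call of a member. A replicate block in the sex comparisons, fitted within each cell type, gave 0 members called in B cells and 0 in T cells, as did the same fits without it, so the pairing of T cell libraries changed no member call. In B cells the same-numbered libraries did not deviate together (r = -0.169, -0.0382 and -0.337) and share only a number. B and T cell groups share no numbers, so no block runs across them. With same-numbered T cell libraries as a replicate block in B against T cells, fitted as a random effect (consensus correlation 0.479, chosen after seeing the data), the members called were 1 and 6, and Stat3 (-0.17) lost its call (limma adjusted p = 0.102). Jak2 and Jak3 kept their calls, with limma adjusted p values of 0.0116 and 0.0241 against 0.0035 and 0.0038 in the main fit. With each pair of T cell libraries averaged to 1 unit the members called were 1 and 7. Depth is unknown, and each group holds 3 pools, which limits what the sex comparisons could detect.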

Other observations

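The deposited bounds of the members were narrower than the gaps between many replicate libraries. Bounds of 10 of the 12 pairs of replicate libraries lay apart for Stat6, 7 for Jak2 and Jak3, 6 for Jak1 and Stat3, 5 for Stat2, 4 for Stat4, 3 for Stat5b and 0 for Stat5a. For B against T cell libraries they lay apart in 36 of 36 pairs for Jak1, Stat2, Stat4, Stat5a and Stat5b, in 32 for Jak2, 29 for Jak3 and 23 for both Stat3 and Stat6.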
